A study of Mus musculus with 17 samples.

Results

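Il4i1, Il4ra, Il21r, Il2rg, Fcer2a, Stat3, Stat6, Socs1 and Socs3 make up a short set of receptors, signal carriers and response genes of interleukin-4 (IL-4) and interleukin-21 (IL-21), and their levels were followed in mouse germinal centre (GC) B cells. They are 9 of the 21848 genes in the count matrices, matched by symbol, and all 9 had at least 1 UMI (unique molecular identifier, 1 captured RNA molecule) in every RNA library used. The set was chosen by the measured change at 48 h after treatment, where Il4i1 has one of the strongest falls in these data, so the fold changes at 48 h, and the return from 48 h to 72 h that shares those mice, are given as a description with no test.

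The cells were B1-8hi B cells, which carry a knocked-in antibody heavy chain against the hapten NP, transferred into congenic wild-type mice primed with ovalbumin and then immunized in the footpad with NP-OVA. According to the study's methods, a minority of the transferred cells expressed the endocytic receptor DEC-205 and the rest were Ly75-/-. On day 7, some of the mice received anti-DEC-OVA, an antibody that carries ovalbumin into DEC-205-expressing cells and brings them help from follicular helper T cells. GC B cells of individually hashtagged mice were sorted from lymph nodes, pooled and run on a droplet 5′ platform. According to the study's figure legends, the cells of the time course were DEC-205-expressing GC B cells. In the time course, 39 mice of 2 experiments (25 in the larger, 14 in the smaller) were taken at 0 h (day 7, n = 9), at 48 h (day 9) untreated (n = 6) or treated (n = 9), and at 72 h (day 10) untreated (n = 8) or treated (n = 7). In a first, shallower experiment there were 3 mice at 0 h, 3 untreated at 72 h and 3 treated at 72 h; the methods state that its treated cells were gated for low mCherry, a label that is diluted by division. In the last experiment, GC B cells with the Rosa26 DHB-tdTomato reporter of CDK2 activity were image-sorted at 72 h after anti-DEC-OVA into CDK2hi (reporter in the cytoplasm) and CDK2low (reporter in the nucleus) populations, each with cells of 7 mice. The donors of the time course also carried Col1a1 tetO-H2B-mCherry and Vav-tTA, in which the Vav promoter drives the label in blood cells, and the study used young mice of both sexes. The transferred cells share 1 heavy chain, so they are a narrow sample of GC B cells, and each sorted population is a single library.

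IL-4 and IL-21 are made in the GC mainly by follicular helper T cells. Both bind a private receptor chain, IL-4Rα (Il4ra) or IL-21R (Il21r), paired with the common γ chain (Il2rg), and JAK kinases on these chains then phosphorylate STAT6 for IL-4 and mainly STAT3 for IL-21. SOCS1 and SOCS3 are induced by such signals and shut the kinases off. CD23, the low-affinity IgE receptor encoded by Fcer2a, is a classical IL-4 target of B cells, and Il4i1, the interleukin-4-induced gene 1, encodes a secreted L-amino acid oxidase. GC B cells alternate between a light zone (LZ), where they meet T cells, and a dark zone (DZ), where they divide.

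STAT dimers bind palindromic sites with the half-sites TTC and GAA, STAT6 preferring a spacer of 4 bases (TTCNNNNGAA) and STAT3 one of 3 (TTCNNNGAA). RefSeq promoter windows (300 bases from 250 before to 50 after an annotated start) were found for all 9 genes, 11 windows in total, and both patterns read the same on either strand and cannot share a start, though matches can otherwise overlap. TTCNNNNGAA occurred in 1 of the 11 windows and in 6.95% of 32851 mouse promoter windows, and TTCNNNGAA occurred in 1 of 11 and in 8.3% of all. The member windows that hold a match are shown because they belong to the CD23 gene and to Socs3, with the match in capitals; coordinates are on GRCm39, where the windows of the GRCm38.p6 table were placed by exact match, and both run 5′ to 3′ on the minus strand.
Fcer2a, upstream of 1 of its annotated starts, chr8:3740862-3741111, TTCNNNNGAA 168 bases before the start: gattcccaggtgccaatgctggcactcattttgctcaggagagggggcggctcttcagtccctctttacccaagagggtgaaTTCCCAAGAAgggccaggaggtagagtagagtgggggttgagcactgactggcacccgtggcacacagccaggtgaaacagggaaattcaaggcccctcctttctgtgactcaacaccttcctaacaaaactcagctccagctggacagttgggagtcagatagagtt
Socs3, chr11:117860327-117860356, TTCNNNGAA 154 bases before the start in the RefSeq table, 30 of its window's bases shown: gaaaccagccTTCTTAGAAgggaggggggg

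These matches are a description of the letters in the windows only. Both starts lie inside the annotated span of their gene given below, and 225 of the 250 bases before the Socs3 start are exon in the GENCODE annotation, so its window is not purely upstream sequence. Among the genes themselves, Il4ra and Il21r lie next to each other on chromosome 7 in the same orientation (GRCm39, 125151079 to 125182844 and 125202601 to 125232756), with 19756 bases between them. Il4i1 (chromosome 7, 44465354 to 44490233) shares 15905 bases with Nup62 on the same strand, so reads in the shared part can be hard to assign to either gene. Nup62, a nuclear pore gene, had a log2 fold change of 0.46 (SE 0.07) in treated against untreated mice at 48 h and of 1.05 (SE 0.04) in CDK2hi against CDK2low cells, the other direction from Il4i1, and of 0.45 (SE 0.12) between cells of high and low LZ score, the same direction as Il4i1. Stat3 shares 142 bases with Stat5a on the opposite strand. The other members lie at chromosome X 100307984 to 100311861 (Il2rg), chromosome 8 3731737 to 3744183 (Fcer2a), chromosome 11 100775924 to 100830450 (Stat3), chromosome 10 127477821 to 127496862 (Stat6), chromosome 16 10600104 to 10603875 (Socs1) and chromosome 11 117856905 to 117860898 (Socs3).

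Levels are given as CPM, the share that a gene takes of the UMIs summed over the cells of a mouse, scaled by TMM normalization. Depth ranged from 1984426 to 13373185 UMIs per mouse in the time course, from 349784 to 4728689 in the first experiment and from 3988733 to 20394909 per sorted population. Markers of GC B cells, summed over 8 genes, lay between 2418 and 4403 CPM in every time-course mouse, whereas the 6 measured stromal and follicular dendritic cell markers summed to at most 3.99 CPM. Between the larger and the smaller experiment, 43 cell barcodes were shared out of 13625 and 10073 cells. The heavy and lambda chain pairing of B1-8hi was read in 9208 of 13625 cells of the larger and 4369 of 10073 of the smaller experiment. It was read in 583 of 10681 cells of the first experiment, 4691 of 7448 CDK2hi and 2719 of 4385 CDK2low cells. Cells without it stayed in the main sums, whereas the paper's methods filtered for this pairing. Each mouse is 1 replicate.

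At 48 h after anti-DEC-OVA, all 9 genes had fitted levels below those of untreated mice of the same day, although Socs3 was too rare to read. Il4i1 and Fcer2a were lower by more than 1 on the log2 scale, and the receptor chains and STATs by less. At 72 h the treated and untreated mice of both experiments together overlapped for all 9 genes, although those of the larger experiment were separated for Il4i1.

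Il4i1 had a lowest, median and highest level of 48.2, 75.8 and 132.7 CPM at 0 h, and of 60.2, 95.9 and 103.9 CPM in untreated mice at 48 h. In treated mice at 48 h the corresponding values were 22.1, 34.1 and 55.3 CPM, and the highest treated mouse lay below the lowest untreated one. At 72 h they were 74.7, 114.2 and 157.9 CPM without and 66.4, 83.0 and 92.8 CPM with treatment, so that these groups overlapped. In the larger experiment alone they did not, with 113.1 to 157.9 CPM without and 69.9 to 92.8 CPM with treatment at 72 h. In order of the medians, treated 48 h was the lowest group, followed by 0 h, treated 72 h, untreated 48 h and untreated 72 h, and from 0 h upwards each group overlapped the next. The fitted log2 fold change in treated against untreated mice at 48 h was −1.29 (SE 0.11), or 2.44-fold lower, with −1.29 in the larger and −1.38 in the smaller experiment. From 48 h to 72 h in treated mice it was 1.16 (SE 0.11), with 1.02 and 1.52 in the larger and smaller experiments.

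Fcer2a was likewise lowest in treated mice at 48 h. Its lowest, median and highest levels were 188.0, 242.6 and 347.2 CPM at 0 h, 184.5, 251.8 and 309.4 CPM in untreated and 72.04, 120.5 and 164.1 CPM in treated mice at 48 h, with no overlap between treated and untreated mice. At 72 h the untreated mice ranged from 178.4 to 338.8 CPM (median 264.0) and the treated mice from 157.7 to 278.7 CPM (median 217.0). The log2 fold change at 48 h was −1.16 (SE 0.10), with −1.08 in the larger and −1.44 in the smaller experiment. From 48 h to 72 h in treated mice the log2 fold change was 1.05 (SE 0.09).

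Of the receptor chains, Il4ra changed the most at 48 h. It measured 75.4, 82.1 and 93.5 CPM (lowest, median, highest) in untreated and 44.0, 53.1 and 63.4 CPM in treated mice, a log2 fold change of −0.68 (SE 0.08), and at 72 h it was again at 67.2 to 91.3 CPM in untreated and 73.5 to 104.4 CPM in treated mice. Il21r went from 139.3, 152.9 and 163.7 CPM untreated to 108.5, 116.7 and 129.0 CPM treated at 48 h, a log2 fold change of −0.40 (SE 0.05). Il2rg, the chain that both receptors share, went from 90.8, 118.2 and 140.5 CPM to 67.1, 91.9 and 102.4 CPM, a log2 fold change of −0.40 (SE 0.05). The 3 receptor genes were thus all lower in CPM, Il21r and Il2rg by a like amount. In each of both experiments the treated and untreated mice of a gene were fully separated at 48 h.

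**Figure D1:**
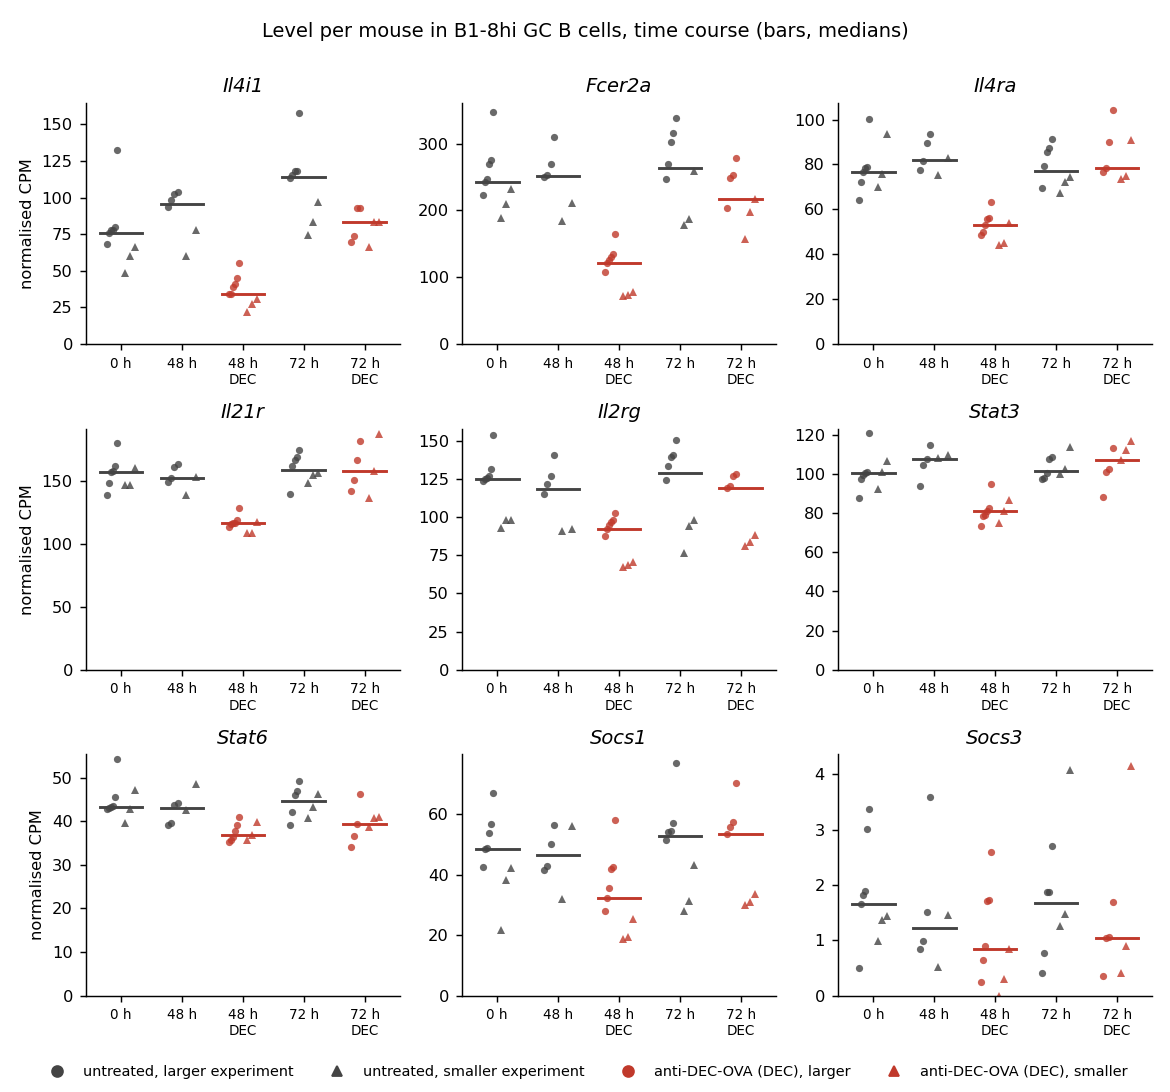
Normalized CPM (vertical axes, starting at 0) of the 9 genes in each of the 39 time-course mice by group (horizontal axes; DEC, anti-DEC-OVA). Circles are mice of the larger and triangles mice of the smaller experiment, and bars are group medians. In the Il4i1 panel the treated mice at 48 h sit between 22.1 and 55.3 CPM, below all untreated mice of that day.

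Stat3 ranged from 94.0 to 114.8 CPM (median 107.7) in untreated and from 73.5 to 94.8 CPM (median 81.1) in treated mice at 48 h, a log2 fold change of −0.39 (SE 0.05). Stat6 moved least of the 9 genes, from a median of 43.2 CPM (39.3 to 48.5) to one of 37.0 CPM (35.2 to 41.1), or −0.20 (SE 0.06). Socs1 had medians of 46.5 CPM (31.9 to 56.5) and 32.4 CPM (18.8 to 58.0), a log2 fold change of −0.53 (SE 0.15) with overlapping groups. Socs3 was counted at 0 to 21 UMIs per mouse at 48 h and its fitted change of −0.69 had an SE of 0.48.

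Over the 9 genes the median log2 fold change at 48 h was −0.53, compared with 0.01 over all 10220 genes tested. Lower levels in every treated than in every untreated mouse, within each of both experiments, were found for 5 of the 9 (Il4i1, Fcer2a, Il4ra, Il21r and Il2rg), and for 8.82% of all genes tested. Within each experiment the same 5 genes had higher CPM in every treated mouse at 72 h than in every treated mouse at 48 h. This held for 7.72% of all genes. These comparisons share the 48 h treated mice, so the second is not independent of the first.

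CPM are shares of the RNA captured from a mouse, and the treated cells at 48 h held more RNA. Their mean UMIs per cell ranged from 12798 to 16871 among treated mice and from 7323 to 10166 among untreated mice at 48 h. On a per-cell scale, given here as a description, only Il4i1 and Fcer2a of the 8 well-measured genes had lower medians after treatment. Il4i1 had a median over mice of 0.493 UMIs per cell (0.278 to 0.884) after treatment and of 0.844 (0.480 to 0.918) without, and Fcer2a one of 1.77 (0.907 to 2.62) and 2.20 (1.47 to 2.54), with overlapping groups in both. Within the larger experiment both genes overlapped too. In the smaller experiment all treated mice lay below all untreated ones for both. Il4i1 was at 0.278 to 0.438 against 0.480 to 0.596 there, and Fcer2a at 0.907 to 1.05 against 1.47 to 1.62. Il4ra was nearly level, at 0.736 (0.588 to 0.909) against 0.708 (0.602 to 0.803). Il21r was at 1.68 UMIs per cell (1.37 to 1.85) against 1.31 (1.11 to 1.496), and Il2rg at 1.36 (0.865 to 1.57) against 1.03 (0.696 to 1.21). In the larger experiment the treated mice lay at 1.67 to 1.85 against 1.29 to 1.496 for Il21r and at 1.33 to 1.57 against 0.998 to 1.21 for Il2rg, and in the smaller at 1.37 to 1.54 against 1.11 to 1.18 and at 0.865 to 0.955 against 0.696 to 0.737. Per cell these receptor chains were thus higher in treated mice within each experiment, the reverse of their CPM. Stat3 (1.06 to 1.36 against 0.773 to 1.06) and Stat6 (0.466 to 0.626 against 0.326 to 0.385) had higher ranges per cell in treated mice, and Socs1 overlapped (0.246 to 0.833 against 0.244 to 0.464). Cells with at least 2871 UMIs were also thinned to that number, and cells with fewer were left out. The log2 fold changes were then −1.13 for Il4i1, −1.02 for Fcer2a and −0.65 for Il4ra. These are still shares and not levels per cell. Fewer expressing cells and less RNA per cell cannot be told apart in these sums. In treated mice at 72 h, mean UMIs per cell ranged from 6501 to 9986. Il21r and Il2rg were lower per cell in all these mice than in every treated mouse at 48 h of the same experiment. This was the reverse of their CPM. Il21r lay at 1.39 to 1.66 in the larger and 1.20 to 1.31 in the smaller experiment. Il2rg lay at 1.04 to 1.22 and 0.614 to 0.738. Medians rose for Il4i1 (0.685) and Fcer2a (2.03) and stayed at 0.736 for Il4ra.

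The cell-cycle makeup of the groups differed at 48 h. Cells called G1 made up a median of 46.6% of the cells in untreated mice (38.3 to 50.5%) and of 15.4% in treated mice (11.1 to 18.4%). Within G1-called cells the change in Il4i1 was not seen: untreated mice measured 190.0 to 234.9 CPM (median 220.9) and treated mice 147.7 to 377.3 CPM (median 225.9), from 275 to 313 and 68 to 142 cells per mouse. In S-called cells Il4i1 was at a median of 51.9 CPM (30.03 to 73.4) without and 18.1 CPM (14.5 to 29.1) with treatment, and in G2M-called cells at 42.7 CPM (27.3 to 49.7) and 21.4 CPM (16.9 to 26.3). In both of these phases all treated mice lay below all untreated mice.

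The fitted log2 fold changes at 48 h gave the same picture, for treated against untreated mice within a phase. For Il4i1 they were 0.16 in G1, −1.25 in S and −0.88 in G2M. For Fcer2a they were −0.23, −0.91 and −0.93. For Il4ra they were −0.22, −0.51 and −0.31, and for Il21r −0.15, −0.26 and −0.18. The median over 8 genes was −0.02 in G1, and Il2rg, Stat6 and Socs1 were on the positive side there (0.10, 0.09 and 0.11). The part of the phase makeup in the lower level over all cells was not tested. The paper reports that cells expanding after anti-DEC-OVA gathered in the DZ. The zone makeup of the groups is not given here, and its part in the lower levels was not tested. The split by LZ score given below took equal parts of the cells of each mouse, so it cannot show a shift between zones.

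**Figure D2:**
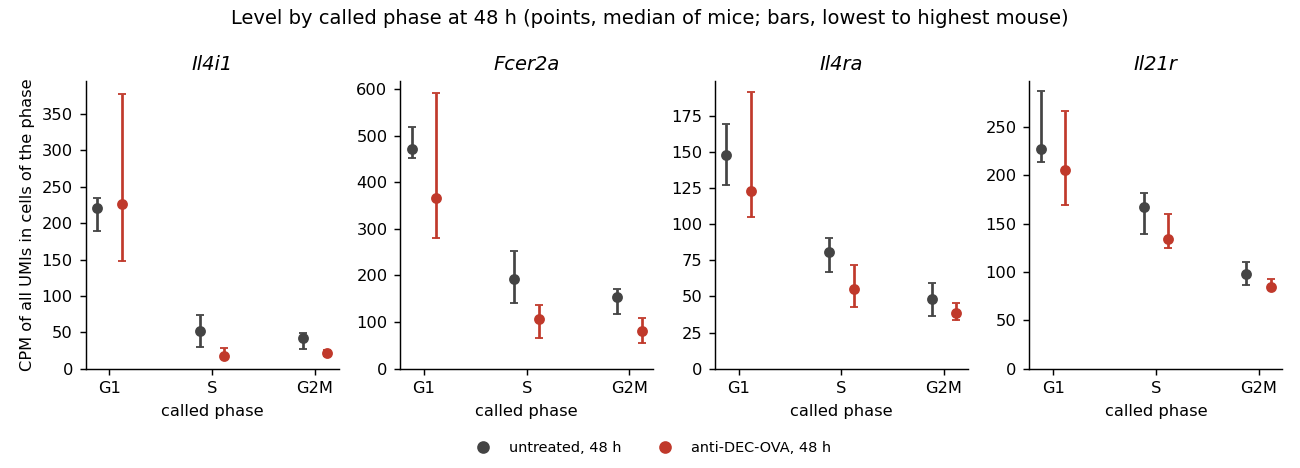
CPM of all UMIs in the cells of a phase (vertical axes, starting at 0) for Il4i1, Fcer2a, Il4ra and Il21r at 48 h, by called phase (horizontal axes), in untreated (grey, n = 6) and anti-DEC-OVA-treated mice (red, n = 9). Points are medians over mice and bars run from the lowest to the highest mouse. In the Il4i1 panel the G1 medians are 220.9 and 225.9 CPM, while the S medians are 51.9 and 18.1 CPM.

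Other signs of the cells moved at 48 h as well. The 8 measured T cell markers, which are mostly Lck in these cells, summed to 71.7 to 109 CPM in untreated and 50.6 to 71.2 CPM in treated mice, and 4 of the 5 tested passed the threshold downwards. Markers of naive or memory B cells, 6 genes led by Klf2, summed to 54.6 to 138 CPM and 37.4 to 79.4 CPM, with 3 of 6 passing downwards. Plasma cell markers, 6 genes led by Jchain, summed to 739 to 1525 CPM in untreated and 1209 to 2037 CPM in treated mice, with 1 of 5 passing upwards and 1 downwards, and of the 8 GC B cell markers 5 passed downwards and 2 upwards. Their part in the lower receptor levels was not tested. RNA of the ligands was nearly absent, with Il4 at a mean of 0.117 CPM in untreated and 0.407 CPM in treated mice at 48 h.

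In the wider pathway lists the genes that passed at 48 h were all lower in CPM. These lists were chosen with earlier results of these data known, so their counts at 48 h are a description and not a test. The values are shares of a larger RNA total per cell in treated mice, and per-cell levels of these genes are not given here. Of 9 JAK kinases and other STATs tested, 6 passed the threshold downwards and 0 upwards (edgeR, adjusted p under 0.05), with a median log2 fold change of −0.34. Of 10 related cytokine receptor chains 4 passed downwards and 0 upwards. Among them were Ifngr2, the accessory chain of the interferon-γ receptor (−0.59, SE 0.08), and Il10ra, the IL-10 receptor (−0.57, SE 0.14). Of 11 other IL-4 or IL-21 response genes 6 passed downwards and 0 upwards. Bcl3, an atypical IκB protein, had the largest change among the well-measured ones (−0.72, SE 0.13). Of 13 inhibitors of JAK-STAT signalling 5 passed downwards and 0 upwards, with a median of −0.10. Among all genes tested, 21.1% passed downwards.

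At 72 h, 1 of 9 genes passed the threshold between treated and untreated mice. Il4i1 was singled out by its fall at 48 h and not by this comparison. The genes were still chosen with earlier results of these data known, so the comparison was not unseen. Il4i1 was 1.36-fold lower in treated mice (log2 fold change −0.44, SE 0.11, edgeR quasi-likelihood test, adjusted p = 0.00848), where 3.88% of all genes passed downwards and 8.55% in either direction. Within experiments its log2 fold change was −0.60 in the larger (adjusted p = 0.00571) and −0.18 in the smaller (adjusted p = 0.817). Its call was lost when the fit had no term for the experiment (−0.45, adjusted p = 0.196) and when only cells with the heavy and lambda chain pairing of B1-8hi were used (−0.40, adjusted p = 0.0683).

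The other 8 genes did not pass at 72 h. The nearest were Stat6 (−0.17, SE 0.06, adjusted p = 0.0935), Il2rg (−0.13, SE 0.05, adjusted p = 0.113) and Fcer2a (−0.22, SE 0.10, adjusted p = 0.170). For Il4ra the difference was 0.11, with an interval of 2 SE to either side that ran from −0.05 to 0.26, for Il21r 0.01 (−0.10 to 0.12), for Stat3 0.03 (−0.09 to 0.14) and for Socs1 −0.02 (−0.32 to 0.28). For Socs3 the interval ran from −1.71 to 0.39, which leaves its direction unread. Within G1-called cells 3 of 8 genes passed, Il4i1 (−0.63, adjusted p = 0.0035), Il2rg (−0.30, adjusted p = 0.00752) and Fcer2a (−0.35, adjusted p = 0.0408), where 7.19% of all genes passed in either direction, and within S-called cells 0 of 8, where 5.62% did.

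Some genes of the wider lists also differed at 72 h. Pim1, a kinase that STATs induce (−0.43, SE 0.09, adjusted p = 0.00226), Bcl3 (−0.52, SE 0.14, adjusted p = 0.0119) and Ifngr2 (−0.32, SE 0.09, adjusted p = 0.0153) fell. Among the 11 other response genes 3 passed downwards and 1 upwards, among the 10 related receptor chains 3 downwards and 0 upwards, and among the 13 inhibitors 1 in each direction. None of the 9 JAK kinases and other STATs passed at 72 h. Of the 6 naive or memory B cell markers, 4 were lower in treated mice at 72 h, with sums of 37.5 to 58.3 CPM against 37.4 to 132 CPM.

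Among untreated mice Il4i1 was the one gene of the 9 to pass in a comparison of time points of the time course. From 0 h to 48 h, 0 of 9 genes passed (0.127% of all genes did), and the largest well-measured difference was that of Il4i1 (0.25, SE 0.11, adjusted p = 0.475). From 0 h to 72 h Il4i1 rose 1.48-fold (0.57, SE 0.10, adjusted p = 0.000457), whereas 1.79% of all genes passed upwards. Its change was 0.62 in the larger (adjusted p = 0.00387) and 0.52 in the smaller experiment (adjusted p = 0.206), and the call was also lost with no term for the experiment (0.53, adjusted p = 0.107) and in S-called cells (0.38, adjusted p = 0.184). The untreated 72 h mice of this comparison are also the controls of the treated mice at 72 h, so that a rise in the controls and a lower level after treatment are not separate observations. Of the wider lists, Bcl3 rose over the same days (0.49, SE 0.12, adjusted p = 0.0134), while Mcl1, an anti-apoptotic protein (−0.15, SE 0.04, adjusted p = 0.0098), and Ptpn6, the phosphatase SHP-1 (−0.16, SE 0.05, adjusted p = 0.036), fell. Of the 11 other response genes 1 passed upwards and 2 downwards.

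**Figure D3:**
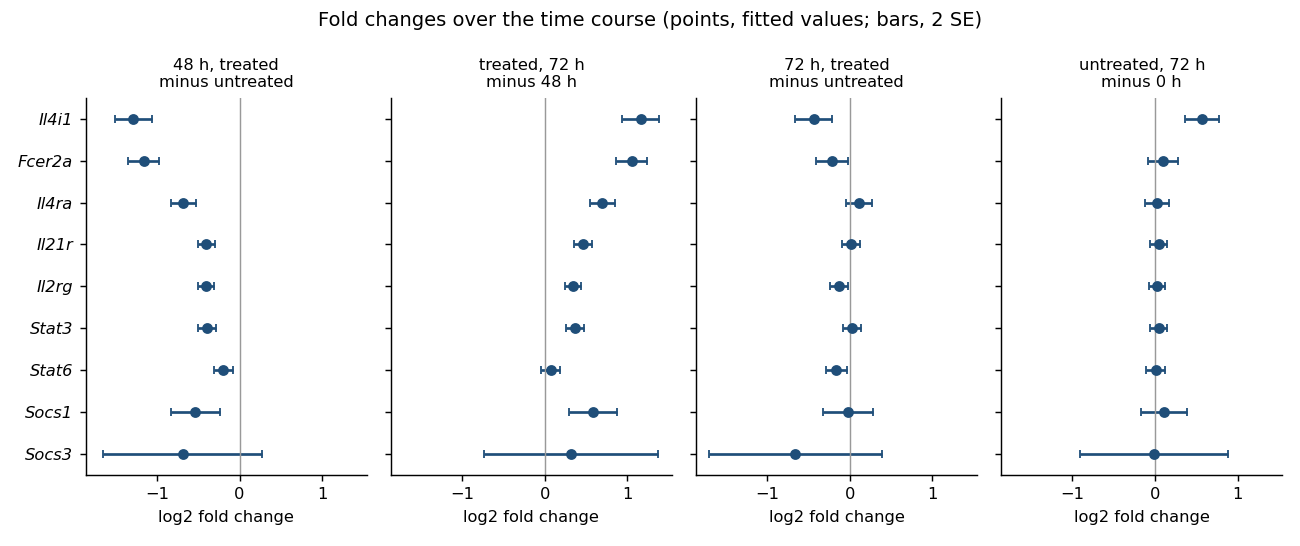
Fitted log2 fold changes (horizontal axes, first group minus second) of the 9 genes (vertical axis) in 4 comparisons of the time course. Points are edgeR estimates over 39 mice and bars extend 2 SE to either side. The changes at 48 h run from −1.29 for Il4i1 to −0.20 for Stat6, and at 72 h the points lie closer to 0, with Il4i1 at −0.44.

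The first experiment holds mice that the choice of genes did not use, at a lower depth. Between treated and untreated mice at 72 h, 0 of the 8 genes tested passed (edgeR, 1.95% of all genes did), and Socs3 was below the filter. Il4i1 was at 95.3, 112.4 and 113.4 CPM in the 3 untreated and at 73.5, 80.7 and 114.9 CPM in the 3 treated mice. Its log2 fold change was −0.21, with an interval of −0.52 to 0.10 that includes both 0 and the −0.44 of the time course. From 0 h to 72 h without treatment its value was −0.14 (−0.46 to 0.18), so the rise of the time course was not seen, and 0.57 lay outside that interval. Leaving out 1 mouse at a time moved these values between −0.42 and −0.08 and between −0.31 and 0.03, so the second could turn its sign (0.03 without mouse M1). In that contrast too 0 of 8 genes passed, and 0.65% of all genes did. Of the wider lists in the same experiment, Pim1 (−0.46, SE 0.10, adjusted p = 0.00469) and Batf, an AP-1 factor (−0.56, SE 0.15, adjusted p = 0.0476), were lower in treated mice.

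In the image-sorted cells, all 9 genes were lower in CDK2hi than in CDK2low cells at an adjusted p under 0.05 (edgeR with mouse as a block), a direction in which 38.6% of all genes passed. Each population was 1 library, so population and library cannot be told apart. Here too the genes were chosen with earlier results of these data known. In CDK2hi cells 56.4% (median) were called G2M and 5.26% G1, and in CDK2low cells 9.85% and 56.5%, with a median of 10534 UMIs per cell in the CDK2hi and of 12885 in the CDK2low library. The 6 naive or memory B cell markers summed to 29.7 to 42.4 CPM in CDK2hi and 51.8 to 147 CPM in CDK2low cells, and the 8 T cell markers to 47.1 to 72 CPM and 57 to 135 CPM. The 8 myeloid markers summed to 4.45 to 7.74 CPM in CDK2hi and 7.76 to 27.7 CPM in CDK2low cells, and both that were tested passed downwards. The part of these markers in the differences was not tested. No filter by zone was applied to the sorted cells here. The paper compared sorted cells with a DZ expression profile, and reports that LZ cells mostly held the reporter in the nucleus. The zone makeup of the sorted populations is not given here, and its part in the differences was not tested.

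Il4i1 differed the most. It ranged from 19.8 to 40.3 CPM (median 33.9) in CDK2hi and from 71.6 to 135.0 CPM (median 110.3) in CDK2low cells, and was lower in 7 of 7 mice (log2 fold change −1.71, SE 0.05, 3.28-fold, adjusted p = 4.5e-21). Fcer2a was next, with 83.4 to 157.9 CPM (median 124.5) against 265.1 to 386.3 CPM (median 326.2) and a log2 fold change of −1.37 (SE 0.04). Il4ra went from 121.1 to 134.4 CPM (median 128.8) in CDK2low to 54.9 to 67.5 CPM (median 63.7) in CDK2hi cells, 2.10-fold lower. This gene thus differed by −1.07 (SE 0.04), more than Il21r (−0.76, SE 0.03) and Il2rg (−0.58, SE 0.04).

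Il21r lay at 118.9 to 143.4 CPM in CDK2hi and 201.9 to 238.4 CPM in CDK2low cells, and Il2rg at 63.9 to 95.8 and 100.4 to 131.3 CPM. Stat3 (−0.50, SE 0.03) and Stat6 (−0.47, SE 0.05) differed less, with medians of 79.4 against 113.8 CPM and 31.3 against 45.0 CPM. Socs1 had medians of 39.5 and 58.1 CPM (−0.58, SE 0.05) with overlapping ranges but a lower value in CDK2hi cells in 7 of 7 mice. Socs3 was at 0.851 to 2.74 CPM against 0.237 to 5.20 CPM and lower in only 4 of 7 mice (−0.97, SE 0.32, adjusted p = 0.00925), a call that was lost without mouse M3 (−0.69, adjusted p = 0.0784), without the block (−0.95, adjusted p = 0.0515) and with DESeq2 (−0.47, adjusted p = 0.525). For 7 of the 9 genes the CDK2hi and CDK2low ranges did not overlap, as for 17.4% of all genes in this direction.

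**Figure D4:**
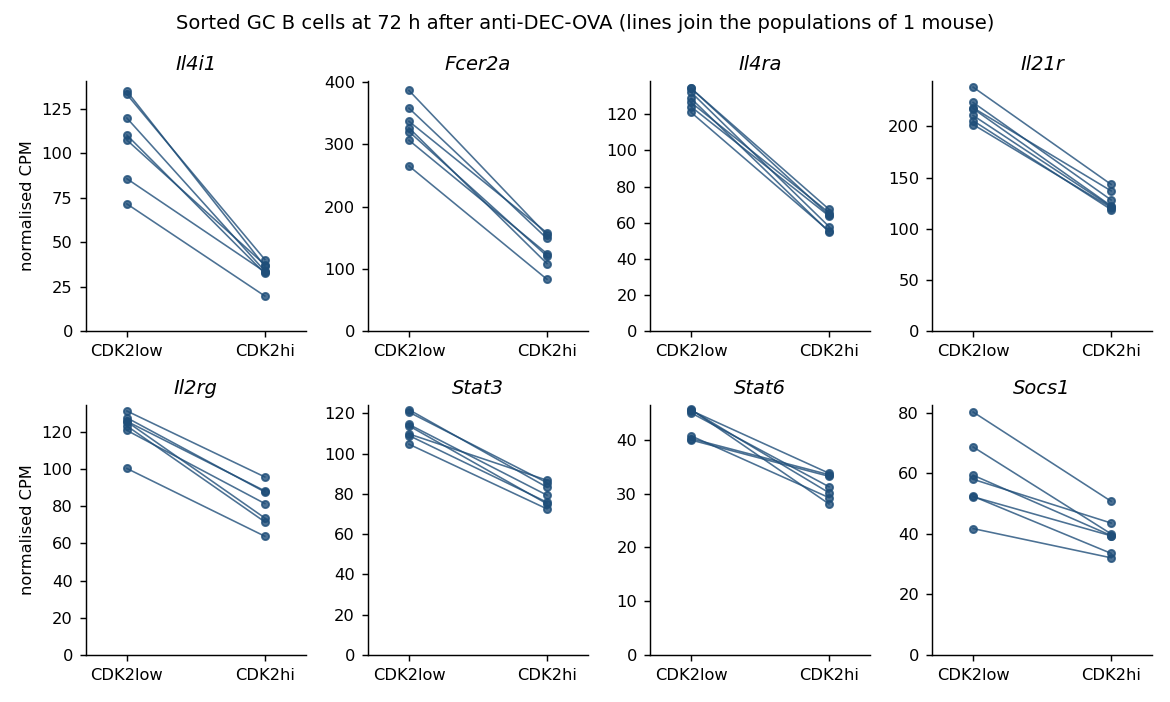
Normalized CPM (vertical axes, starting at 0) of 8 genes in CDK2low and CDK2hi cells of the same mouse, joined by a line (n = 7 mice, each population 1 library). All lines fall from CDK2low to CDK2hi, and for Il4i1 from a median of 110.3 to one of 33.9 CPM.

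The difference between the populations was not the same in every called phase; the differences between phases were not tested. In G1-called cells (22 to 113 CDK2hi cells per mouse), 5 of 8 genes passed downwards (30.3% of all genes passed in either direction), Fcer2a (−0.87), Il4ra (−0.44), Stat3 (−0.36), Il4i1 (−0.30) and Il21r (−0.23). S-called and G2M-called cells were compared by a choice made after the data were seen. In S-called cells all 8 genes passed downwards (60.7% of all genes in either direction), with Il4i1 at −1.33, Fcer2a at −1.31, Il4ra at −0.98 and Il21r at −0.54. In G2M-called cells (25 to 116 CDK2low cells per mouse), where 49.3% of all genes passed in either direction, Il4i1 differed by −0.01 (adjusted p = 0.965) and Fcer2a was higher in CDK2hi cells (0.33, adjusted p = 0.00512), while Il4ra (−0.42), Il21r (−0.40) and Stat6 (−0.42) were lower. Il4ra and Il21r thus passed downwards in each of the 3 phases, and Il4i1 and Fcer2a in G1 and S.

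Of the wider lists, all 9 JAK kinases and other STATs that were tested were lower in CDK2hi cells, among them Tyk2 (−0.57, SE 0.06), and so were all 8 related receptor chains, led by Il10ra (−1.52, SE 0.07) and Ifngr2 (−0.74, SE 0.06). Of 10 other response genes 7 were lower and 1 higher, against 36.5% of all genes higher. The 12 inhibitors were divided, with 4 higher and 3 lower.

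The zone and the phase of a cell could be read in untreated mice of the time course. G1-called cells of each of the 23 mice were split by a score of 10 LZ minus 4 DZ genes that holds none of the 9, and equal parts with the highest and the lowest scores (46 to 147 cells each) were compared within mice. Il4i1 had the largest difference of the 8 genes tested. It measured 226.9, 474.3 and 869.4 CPM (lowest, median, highest) in cells of high and 15.5, 50.6 and 122.8 CPM in cells of low LZ score, higher in 23 of 23 mice with no overlap between the groups (log2 fold change 3.20, SE 0.08, 9.19-fold, edgeR adjusted p = 5.4e-40).

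Of the 8 genes tested, 7 were higher in cells of high LZ score, where 19.9% of all genes were. Fcer2a had medians of 729.2 and 297.5 CPM (1.35, SE 0.05) and again no overlap. Il2rg was 2.004-fold higher (1.003, SE 0.06, 23 of 23 mice), and Socs1 (0.72, SE 0.10), Stat6 (0.50, SE 0.08), Il21r (0.40, SE 0.05) and Stat3 (0.35, SE 0.06) were higher by less. Il4ra did not pass, with medians of 133.9 and 132.1 CPM, a difference of 0.09 (interval −0.05 to 0.24, adjusted p = 0.330) and a higher value in 15 of 23 mice. Its call depended on the cells chosen, since it passed when cells of all phases entered (0.49, adjusted p = 4.2e-11) and narrowly when only LZ genes formed the score (0.18, adjusted p = 0.0471).

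The same split in the 9 treated mice at 48 h, chosen after the data were seen, gave 3.70 for Il4i1, 1.46 for Fcer2a and 1.07 for Il2rg. Socs1 (0.74) and Il21r (0.42) also passed there, while Il4ra (−0.02), Stat3 (0.32) and Stat6 (0.13) did not, in a fit where 23.2% of all genes passed in either direction. Socs3 was below the filter in both; in untreated mice it was counted with 57 UMIs in the cells of high and 8 UMIs in those of low score over all mice. Markers of other cells moved the same way in untreated mice, with 3 of 3 naive or memory B cell markers (median 1.08), 3 of 3 plasma cell markers (0.55 to 1.39, Irf4 among them) and the 1 T cell marker tested (0.97) higher in cells of high LZ score, and their part in the members' differences was not tested. Among genes of the wider lists, Bcl3 (1.78, SE 0.14), Batf (1.72, SE 0.13) and Irf4, a factor of B cell activation (1.39, SE 0.18), were higher in untreated cells of high LZ score.

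By phase, all 8 genes tested were lower in CPM in S-called and in G2M-called than in G1-called cells of the same untreated mice. Of all genes, 42.8% and 40.4% passed downwards. These values are shares of the UMIs captured in a phase, and levels per cell by phase are not given here. Il4i1 had medians of 213.9 CPM in G1, 54.8 CPM in S and 41.0 CPM in G2M, lower than in G1 in 23 of 23 mice in both (log2 fold changes −2.06, SE 0.08, and −2.46, SE 0.08). Fcer2a stood at 470.5, 209.7 and 159.6 CPM (−1.20 and −1.60). Il4ra fell further in G2M (−1.39, median 49.8 CPM) than in S (−0.71, 77.9 CPM) from a G1 median of 129.0 CPM.

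Il21r had the smallest difference in S (−0.44) and a larger one in G2M (−1.10), with medians of 224.8, 165.9 and 105.9 CPM over G1, S and G2M. Il2rg was at 179.4, 110.2 and 94.0 CPM (−0.69 and −0.89). Stat3 and Stat6 had the smallest differences in G2M (−0.43 and −0.42), and Socs1 was at −0.85 in S and −0.79 in G2M. Markers of other cells were also lower outside G1, with 6 of 6 naive or memory B cell markers in S (median −2.15) and 5 of 6 in G2M (median −2.07), and 4 of 4 plasma cell markers and the 1 myeloid marker tested in both. Their part in the phase differences was not tested. In Nup62, which shares sequence with Il4i1, the values were 1.71 in S and 1.57 in G2M, the other direction.

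**Figure D5:**
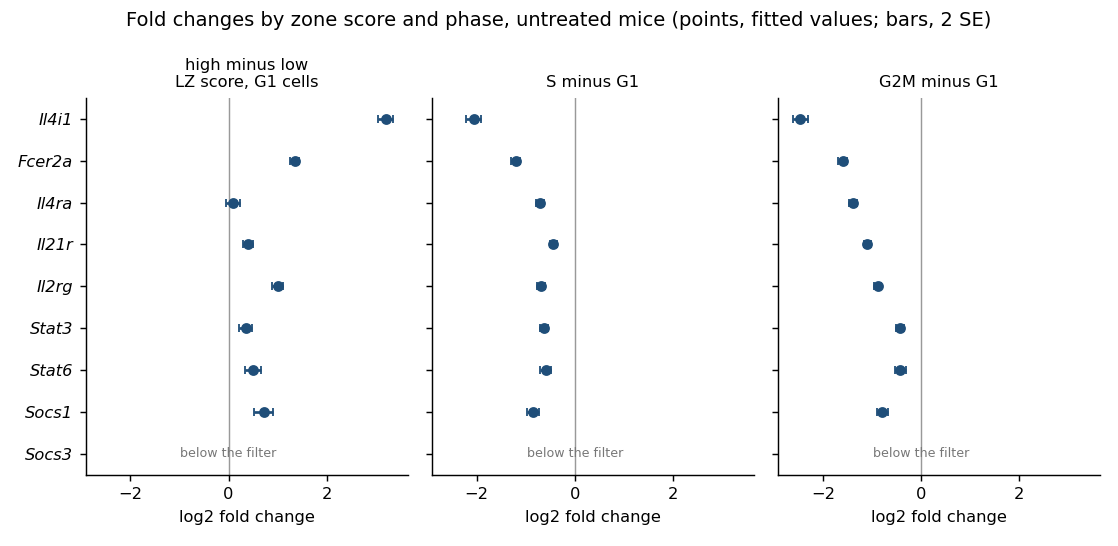
Fitted log2 fold changes (horizontal axes) of the 9 genes (vertical axis) between cells of high and low LZ score within G1 and between called phases, in 23 untreated mice with mouse as a block. Points are edgeR estimates, bars extend 2 SE to either side, and Socs3 was below the filter on low counts. Il4i1 lies farthest from 0 in each panel, at 3.20, −2.06 and −2.46, and Il4ra lies at 0.09 in the zone panel.

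Across the 39 time-course mice, after the mean of each experiment was subtracted, the genes whose log2 CPM ran most like that of Il4i1 were Dock10, a guanine nucleotide exchange factor (Pearson r = 0.933), Fcer2a (0.925), Ankrd12 (0.908), Ciita, the master regulator of MHC class II genes (0.907), and H2-Oa, a chain of the MHC class II chaperone H2-O (0.906), out of 6817 genes compared. Of the other members, Il2rg ranked 74 (0.834), Il21r 113 (0.810), Il4ra 193 (0.776) and Stat3 254 (0.755), and Socs1 (982, r = 0.558) and Stat6 (1052, r = 0.539) were far down. These correlations are a description. The mice share libraries within an experiment, differ in cell-cycle makeup and include the treated mice at 48 h that were low in most of these genes.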

How the data were processed

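UMI counts per gene and cell were deposited by the authors as filtered matrices (Cell Ranger 7.1.0 in the header for the first experiment, 8.0.1 for the others; the submitters' processing notes list Cell Ranger 6.0.1, Seurat 5.1.0 and mm39). Hashtag counts, also deposited, were called with HTODemux (Seurat 5.3.0); cells with hashtags of more than 1 mouse, under 200 genes or over 10% mitochondrial UMIs were left out, and no further doublet caller was run. Of the cells assigned in the smaller experiment, 3114 of 13187 failed these filters. The deposited index tables, not the GEO labels, gave the group of each mouse.

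Counts were summed per mouse and tested with edgeR 4.0.16 (R 4.3.3; TMM, filterByExpr, quasi-likelihood, Benjamini-Hochberg over all genes, threshold 0.05) with group and experiment as terms; paired comparisons had mouse as a block. CDK2hi and CDK2low cells with 1 mouse number come from 1 animal, and their deviations correlated at 0.211 to 0.665 in 7 pairs over 6788 genes. SE is the log2 fold change divided by the root of F. Of 9 mice listed for the sorted cells, 2 lacked the minimum of 10 kept cells per mouse and were left out. Phases were called from 97 cell-cycle genes with scanpy 1.11.5. The steps were tested on simulated data. Alternatives included DESeq2 1.42.0, no low-count filter, thinning, pairing, single experiments, phases and left-out mice. The members and lists were chosen with earlier results of these data known; named list genes are the 3 largest changes past the threshold with average log2 CPM above 4 in each comparison (1 such gene is not reported here), and names for likeness are the 5 highest r. p-values measure the spread between mice, or in the paired comparisons the spread between mice of the differences within a mouse.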

Additional observations from a re-analysis of the deposited data

Results flagged for a closer look

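In groups of 4 to 10 mice of 1 experiment, a highest or lowest mouse that stood apart from the rest by Dixon's 95% criterion was found in 9 of 63 groups, where chance alone gives about 1 in 20. In the larger experiment, the highest mouse for Il4i1 was at 132.7 CPM at 0 h (others 68.4 to 79.9) and at 157.9 CPM in untreated mice at 72 h (others 113.1 to 118.3). Il2rg at 0 h had a highest mouse at 153.6 CPM (others 123.4 to 131.5), Stat6 at 0 h one at 54.4 CPM (others 42.7 to 45.7), Socs1 in untreated mice at 72 h one at 77.0 CPM (others 51.6 to 57.1) and Il21r in treated mice at 48 h one at 129.0 CPM (others 113.4 to 118.8). The 3 flagged values at 0 h belong to 1 mouse, M06, and are not separate observations. This mouse had 312 cells, 61.2% of them called G1, against 553 to 616 cells and 33.4 to 41.6% in the other mice of its group; the part of this in its levels was not tested. In the sorted cells, the lowest mouse for Il4i1 in CDK2hi was at 19.8 CPM (others 32.5 to 40.3), the lowest for Il2rg in CDK2low at 100.4 CPM (others 120.9 to 131.3) and the highest for Socs3 in CDK2hi at 2.74 CPM (others 0.851 to 1.38).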

How the results depend on the processing

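At 72 h, where 1 gene passed in treated against untreated mice, the count was 0 with no term for the experiment, 0 in cells with the B1-8hi pairing, 0 in the smaller experiment, 0 in S cells, 2 in thinned cells (Il4i1 and Fcer2a) and 3 in G1 cells. From 0 h to 72 h untreated, where 1 passed, it was 0 with no term for the experiment, in the smaller experiment and in S cells. The median over the genes at 48 h, −0.53, was −0.44 in the larger and −0.76 in the smaller experiment, −0.017 in G1 and −0.28 in G2M cells. From 48 h to 72 h after treatment the median of 0.46 was 0.56 with only these groups fitted, 0.74 with the pairing, 0.64 in the smaller experiment and −0.083 in G1 cells, where Il4i1 (−0.43), Il2rg (−0.35), Stat3 (−0.040) and Socs1 (−0.13) had the opposite sign. At 48 h the sign also turned in G1 cells for Il4i1 (0.16), Il2rg (0.10), Stat6 (0.089) and Socs1 (0.11). In CDK2hi against CDK2low cells 5 genes passed downwards in G1 cells and 4 in either direction in G2M cells, and the sign turned for Socs1 (0.070 in G1 and 0.065 in G2M) and Fcer2a (0.33 in G2M). The causes were not tested beyond these splits.

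Leaving out each mouse gave 8 to 9 genes in CDK2hi against CDK2low cells, and 0 in both comparisons of the first experiment. Without the replicate block 8 of 9 genes passed in CDK2hi against CDK2low, with Il4i1 at −1.73 and only Socs3 lost (−0.95), and 7, 8 and 8 passed for LZ score, S and G2M. Of 1030 single-gene values under alternatives, 963 kept their direction and side of the threshold or moved by less than the spread between mice. The others were classed as moved (32), weaker (18), reversed (11) or stronger (6). A change of sign with neither value past the threshold was found 71 times. Over all genes, the 874 calls at 72 h became 217 with no term for the experiment, 429 in thinned cells and 22 in the smaller experiment, and the 451 from 0 h to 72 h became 77, 175 and 3. Socs3 had 0 to 21 UMIs per mouse in the time course, too few to read a direction.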
